A study of Mus musculus with 6 samples.

Results

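The integrated stress response is described here through 10 of its regulators and target genes, ATF4, DDIT3, ATF3, CEBPB, TRIB3, PPP1R15A, SESN2, DDIT4, CHAC1 and GDF15. They were chosen by Ensembl identifier with earlier results of these data known. All 10 were found among the 62492 genes of the deposited table. The RNA came from A375, an established human melanoma cell line, in bulk. Every group was transduced with a lentiviral CRISPR/Cas9 construct and a guide, kept under 10 µg/mL puromycin, and sampled on day 7 after that selection. The titles place 2 libraries in the sgABCE1 group (guides against ABCE1, the ATPase that splits ribosomes after termination), 2 in the sgYAE1 group (guides against YAE1, an adaptor that with LTO1 serves the iron-sulfur cluster of ABCE1) and 2 in the sgCon group (guides against LacZ or Luciferase). Nothing in the labels tells if replicate libraries differ in guide or culture, or if unedited cells remain, so p-values cover only library-to-library spread, possibly technical. The organism label names the mouse, whereas the cell line, the identifiers and the stated build are human. The genotype label of the second library of each targeted group names a gene ending in 2, and the titles were followed.

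In the integrated stress response, kinases that sense amino acid shortage, misfolded protein, haem lack or double-stranded RNA phosphorylate the initiation factor eIF2. General translation falls, while the transcription factor ATF4 is translated more because of short reading frames upstream of its own. ATF4 then switches on other transcription factors, feedback genes and genes of amino acid and redox metabolism. The mRNAs of ATF4, ATF3 and DDIT3 have also been described as substrates of nonsense-mediated decay in mammalian cells, and the title of the series names that decay pathway. RNA levels do not measure the translational step.

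Library totals worked out from the values were 15713011 and 17687994 fragments for sgABCE1, 16815388 and 17065739 for sgYAE1, and 18399718 and 17614506 for sgCon. The 10 genes had between 60.5 and 8185 fragments in a library, a counting error of 12.9% to 1.11% (the square root of the count over the count, counting only). Pearson's r between replicates was 0.992 to 0.994 across 12578 genes, and between groups 0.942 to 0.980. The targeted genes and cell type markers were not analysed here, because the table pairs no identifier with a symbol, so the labels were not checked against them.

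All 10 genes were higher with ABCE1 guides than with control guides, and 9 of 10 were called higher with YAE1 guides (limma on log2(FPKM + 1), adjusted p under 0.05 over 12578 genes). ATF3 moved furthest in both comparisons, 20.0-fold with ABCE1 guides and 6.56-fold with YAE1 guides in mean FPKM (fragments per gene, divided by gene length and by library size). With ABCE1 guides 37.5% of all genes tested were called higher and 57.9% were called in either direction. With YAE1 guides these shares were 34.2% and 51.8%. The 10 genes are targets or partners of one another, so they are not 10 independent measurements, and both comparisons share the control libraries. In bulk RNA a change in all cells and a change in a part of them cannot be told apart.

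**Figure D1:**
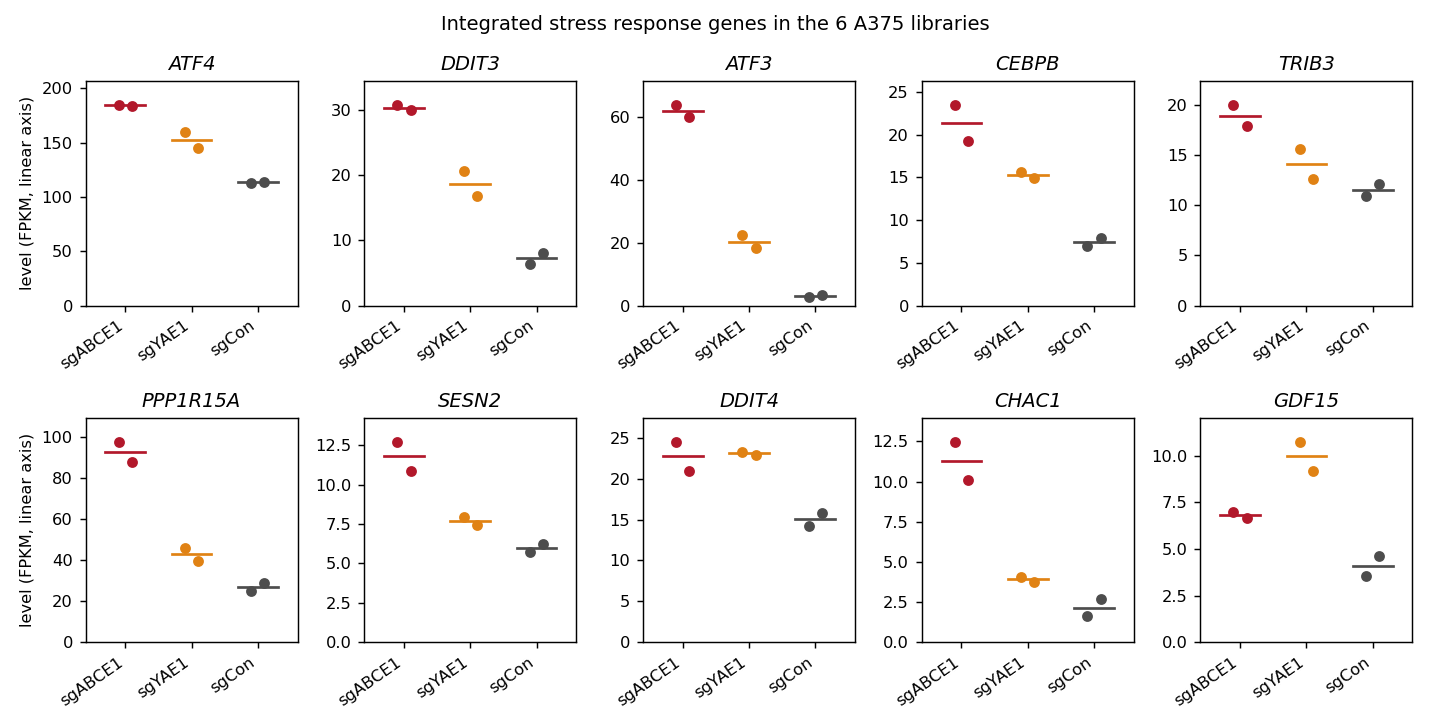
Level of each gene in FPKM (vertical axis, linear and starting at 0, with its own scale per gene) in the 2 libraries of the sgABCE1, sgYAE1 and sgCon groups; points are libraries, replicate 1 on the left, and lines are group means. The control libraries are the lowest for every gene, and both sgABCE1 libraries are above all others for every gene except DDIT4 and GDF15.

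ATF4 (ENSG00000128272), the central transcription factor of the pathway, was the most abundant of the 10 in every group. It had 184 and 184 FPKM in the sgABCE1 libraries, 160 and 145 FPKM in the sgYAE1 libraries, and 113 and 114 FPKM in the sgCon libraries. The 3 groups did not overlap, with sgABCE1 highest and sgCon lowest. With ABCE1 guides ATF4 rose 1.62-fold in mean FPKM (log2 difference 0.69 ± 0.05, SE, limma adjusted p = 8.9e-05). With YAE1 guides it rose 1.34-fold (log2 difference 0.42 ± 0.05, SE, limma adjusted p = 0.00085). Among all genes tested, 90.1% had a smaller log2 difference than ATF4 with ABCE1 guides and 82.0% with YAE1 guides. The other transcription factors of the 10, DDIT3, ATF3 and CEBPB, each had a larger log2 difference than ATF4 in both comparisons.

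DDIT3 (ENSG00000175197), also called CHOP, is a transcription factor downstream of ATF4 that is linked to cell death under prolonged stress. Its level was 30.8 and 30.0 FPKM in the sgABCE1 libraries, 20.6 and 16.9 FPKM in the sgYAE1 libraries, and 6.42 and 8.14 FPKM in the sgCon libraries. No group overlapped another, and every targeted library was at least 16.9 FPKM. DDIT3 rose 4.18-fold with ABCE1 guides (log2 difference 1.93 ± 0.12, SE, limma adjusted p = 4.7e-05). With YAE1 guides the rise was 2.57-fold (log2 difference 1.26 ± 0.12, SE, limma adjusted p = 0.00034).

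ATF3 (ENSG00000162772), an early-response transcription factor that ATF4 and other stress pathways induce, was at 63.9 and 59.9 FPKM in the sgABCE1 libraries. It was at 22.4 and 18.2 FPKM in the sgYAE1 libraries and at 2.73 and 3.46 FPKM in the sgCon libraries. The groups lay far apart, each step being wider than the spread within any group. The log2 difference was 3.95 ± 0.12 with ABCE1 guides (SE, limma adjusted p = 7.5e-06) and 2.38 ± 0.12 with YAE1 guides (SE, limma adjusted p = 4.3e-05). Ordered from the highest rise down, ATF3 stood at rank 2 of 12578 genes with ABCE1 guides and at rank 7 with YAE1 guides. By level it was at rank 9 of the 10 genes in the controls, rank 4 with YAE1 guides and rank 3 with ABCE1 guides.

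CEBPB (ENSG00000172216), which forms dimers with ATF4 and DDIT3, had 23.4 and 19.2 FPKM in the sgABCE1 libraries, 15.6 and 14.9 FPKM in the sgYAE1 libraries, and 6.93 and 7.93 FPKM in the sgCon libraries. Again the groups did not overlap and the controls were lowest. It rose 2.87-fold with ABCE1 guides (log2 difference 1.40 ± 0.10, SE, limma adjusted p = 7.9e-05) and 2.05-fold with YAE1 guides (log2 difference 0.95 ± 0.10, SE, limma adjusted p = 0.00049). Of the 4 transcription factors, ATF4 had the smallest log2 difference in either comparison.

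**Figure D2:**
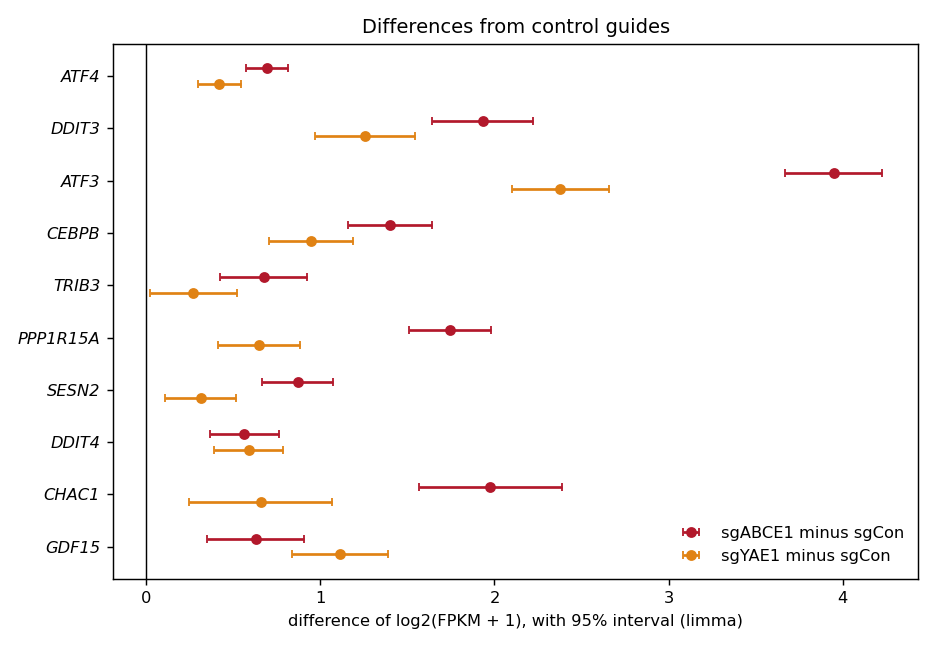
Difference of log2(FPKM + 1) from the control group (horizontal axis) with its 95% interval from limma, for sgABCE1 (upper point of each pair) and sgYAE1 (lower point), 2 libraries per group. Every point is above 0, from 0.56 (DDIT4) to 3.95 (ATF3) with ABCE1 guides and from 0.27 (TRIB3) to 2.38 (ATF3) with YAE1 guides.

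PPP1R15A and TRIB3 are feedback genes of the pathway. PPP1R15A (ENSG00000087074), also called GADD34, directs protein phosphatase 1 to eIF2 and so reverses the signal. Its level was 97.6 and 87.6 FPKM in the sgABCE1 libraries, 45.9 and 39.7 FPKM in the sgYAE1 libraries, and 24.9 and 29.0 FPKM in the sgCon libraries. The sgABCE1 libraries stood clear of the rest, while the sgYAE1 libraries were nearer to the controls. It rose 3.44-fold with ABCE1 guides (log2 difference 1.75 ± 0.10, SE, limma adjusted p = 3.6e-05) and 1.59-fold with YAE1 guides (log2 difference 0.65 ± 0.10, SE, limma adjusted p = 0.0021).

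TRIB3 (ENSG00000101255), a pseudokinase that binds ATF4 and holds down its activity, had 20.0 and 17.9 FPKM in the sgABCE1 libraries, 15.5 and 12.6 FPKM in the sgYAE1 libraries, and 10.9 and 12.1 FPKM in the sgCon libraries. The second sgYAE1 library lay just above the higher control. TRIB3 rose 1.65-fold with ABCE1 guides (log2 difference 0.67 ± 0.10, SE, limma adjusted p = 0.0017). With YAE1 guides the log2 difference was 0.27 ± 0.10 (SE, 95% interval 0.02 to 0.52, limma adjusted p = 0.069) and did not pass. The value turned on the sgYAE1 libraries, with a log2 difference of 0.13 without sgYAE1 replicate 1 (limma adjusted p = 0.29) and 0.41 without sgYAE1 replicate 2 (limma adjusted p = 0.016). It was 0.17 with each library centred on its median gene (limma adjusted p = 0.22). At nearly the same value TRIB3 passed with a filter at a mean of 5 FPKM (0.27, limma adjusted p = 0.042) and with voom on fragments (0.29, limma adjusted p = 0.023).

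SESN2 and DDIT4 both restrain the growth kinase complex mTORC1, SESN2 as a leucine sensor and DDIT4 through the TSC complex. SESN2 (ENSG00000130766) had 12.7 and 10.9 FPKM in the sgABCE1 libraries, 7.95 and 7.42 FPKM in the sgYAE1 libraries, and 5.73 and 6.26 FPKM in the sgCon libraries. It rose 1.97-fold with ABCE1 guides (log2 difference 0.87 ± 0.08, SE, limma adjusted p = 0.00024) and 1.28-fold with YAE1 guides (log2 difference 0.31 ± 0.08, SE, limma adjusted p = 0.02). The YAE1 call for SESN2 was lost under 5 of 14 alternatives, always at a positive difference. With no filter the log2 difference was the same 0.31 (limma adjusted p = 0.089). It was 0.27 without sgYAE1 replicate 1 (limma adjusted p = 0.087), 0.26 without sgCon replicate 1 (limma adjusted p = 0.11), 0.22 with each library centred on its median gene (limma adjusted p = 0.078) and 0.23 with quantile normalization (limma adjusted p = 0.066).

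DDIT4 (ENSG00000168209) had 24.5 and 21.0 FPKM in the sgABCE1 libraries, 23.2 and 23.0 FPKM in the sgYAE1 libraries, and 14.2 and 15.8 FPKM in the sgCon libraries. The sgYAE1 libraries lay between the sgABCE1 libraries, and all 4 were above the controls. Its rise was 1.51-fold with ABCE1 guides (log2 difference 0.56 ± 0.08, SE, limma adjusted p = 0.0013) and 1.54-fold with YAE1 guides (log2 difference 0.59 ± 0.08, SE, limma adjusted p = 0.0015).

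CHAC1 (ENSG00000128965), an enzyme that breaks down glutathione, was the least abundant of the 10 in the controls. It had 12.5 and 10.1 FPKM in the sgABCE1 libraries, 4.06 and 3.76 FPKM in the sgYAE1 libraries, and 1.60 and 2.71 FPKM in the sgCon libraries. The controls had 60.5 and 98 fragments, the largest ratio between control libraries among the 10 genes. CHAC1 rose 5.23-fold with ABCE1 guides (log2 difference 1.98 ± 0.17, SE, limma adjusted p = 0.00016). On the scale of log2(FPKM + 1), which understates the change of low genes, this was close to the 1.93 of DDIT3. With voom on fragments CHAC1 was at 2.42 and DDIT3 at 2.07. With YAE1 guides CHAC1 rose 1.81-fold (log2 difference 0.66 ± 0.17, SE, limma adjusted p = 0.018). That call was lost under 4 of 14 alternatives. Without sgCon replicate 1 the log2 difference was 0.40 (limma adjusted p = 0.059), without sgYAE1 replicate 1 it was 0.61 (limma adjusted p = 0.078), without sgYAE1 replicate 2 it was 0.70 (limma adjusted p = 0.051), and with no filter it was the same 0.66 (limma adjusted p = 0.1).

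GDF15 (ENSG00000130513), a secreted stress cytokine of the TGF-beta family, had 7.0 and 6.64 FPKM in the sgABCE1 libraries, 10.7 and 9.17 FPKM in the sgYAE1 libraries, and 3.54 and 4.62 FPKM in the sgCon libraries. It was the only one of the 10 whose sgYAE1 libraries both exceeded both sgABCE1 libraries. GDF15 rose 1.67-fold with ABCE1 guides (log2 difference 0.63 ± 0.12, SE, limma adjusted p = 0.0036) and 2.44-fold with YAE1 guides (log2 difference 1.11 ± 0.12, SE, limma adjusted p = 0.00046).

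Counted by size, 5 of the 10 genes were called higher with a log2 difference of at least 1 with ABCE1 guides. They were ATF3, CHAC1, DDIT3, PPP1R15A and CEBPB. Of all genes tested 4.40% were called higher at that size. With YAE1 guides ATF3, DDIT3 and GDF15 were called higher at that size, 3 of 10 against 2.20% of all genes. CEBPB fell just short at 0.95, and was at 1.03 with a pseudocount of 0.1 and at 1.04 with voom on fragments. The share of all genes under those settings was not counted. The libraries of all 10 genes did not overlap the controls and lay above them in both comparisons, which held for 50.6% of all genes with ABCE1 guides and 49.8% with YAE1 guides. The median log2 difference of the 10 was 1.14 with ABCE1 guides, against 0.10 over all genes, and 0.65 with YAE1 guides, against 0.10. The smallest difference among the 10 with ABCE1 guides, that of DDIT4, was above that of 85.3% of all genes. With YAE1 guides the smallest, that of TRIB3, was above that of 69.9%. Because the 10 genes were chosen with earlier results of these data known, these contrasts with all genes are descriptions. They are no test of an excess.

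**Figure D3:**
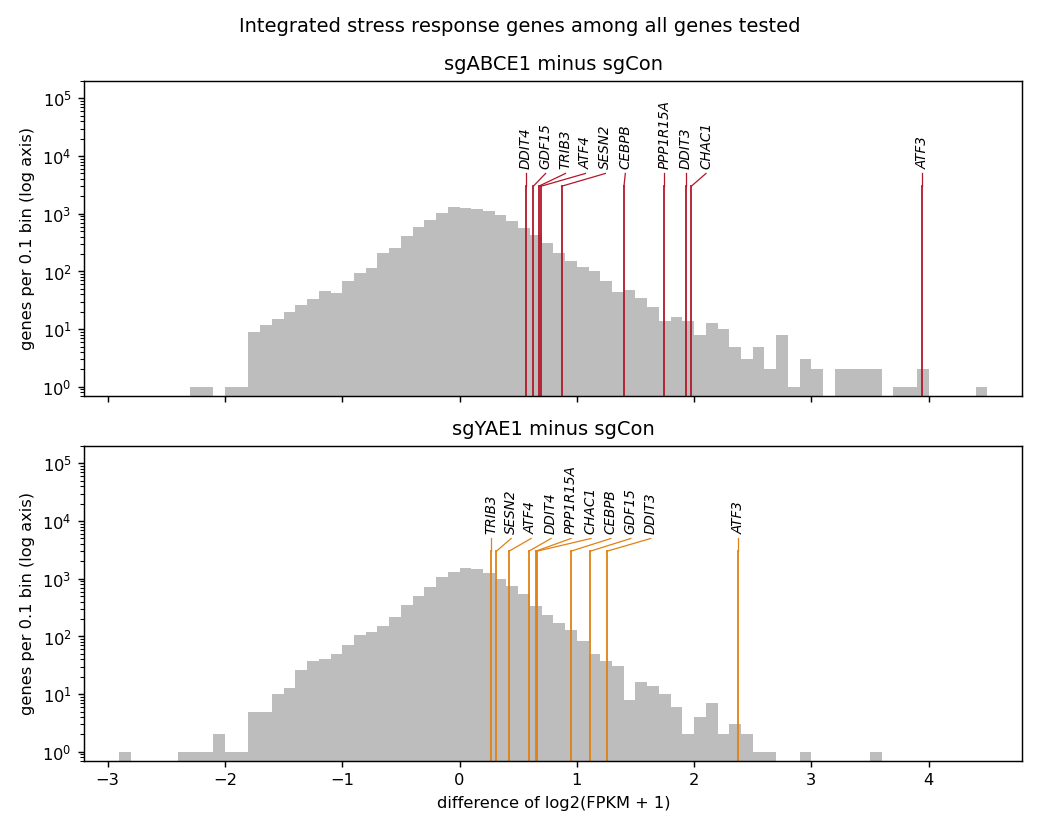
Number of genes (vertical log axis) per bin of 0.1 in the difference of log2(FPKM + 1) (horizontal axis) for 12578 genes tested, with lines at the 10 stress response genes, sgABCE1 minus sgCon above and sgYAE1 minus sgCon below. All 10 lines lie right of the median gene (0.10 in both panels), and ATF3 lies in the far right tail of both.

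The excess of higher calls over all genes depended on the scaling, and the direction of the 10 genes did not. With ABCE1 guides 64.8% of calls over all genes were higher on the deposited scale, 45.5% with each library centred on its median gene and 49.0% with quantile normalization. With YAE1 guides these shares were 66.0%, 49.1% and 52.2%. Centring moved the median of all genes with ABCE1 guides by -0.14 and quantile normalization by -0.12. The median of the 10 genes was then 1.00 and 1.06 with ABCE1 guides. All 10 remained called higher with ABCE1 guides under both, and 8 were called higher with YAE1 guides under both. Centring and quantile normalization called 3271 and 3436 of 12578 genes higher with ABCE1 guides, and 3014 and 3124 with YAE1 guides.

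Together the 10 genes took 0.130% and 0.122% of the fragments in the sgABCE1 libraries, 0.0842% and 0.0748% in the sgYAE1 libraries, and 0.0486% and 0.0520% in the sgCon libraries. The groups did not overlap, and ATF4 weighed on these sums most. ATF4 made up 35.7% and 38.0% of the fragments of the 10 genes in the sgABCE1 libraries, 47.7% and 48.8% in the sgYAE1 libraries, and 58.6% and 55.0% in the sgCon libraries. The ATF4 share was smaller in the targeted groups, where ATF3 and PPP1R15A had larger fold changes than ATF4. With ABCE1 guides these were 20.0 and 3.44 against 1.62 for ATF4, and with YAE1 guides 6.56 and 1.59 against 1.34.

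The order of levels per length was alike at the top and changed below it. ATF4 came first and PPP1R15A next in all groups. In the sgABCE1 group they were followed by ATF3 and DDIT3, then DDIT4, CEBPB and TRIB3, then SESN2, CHAC1 and GDF15. DDIT4 and CEBPB, CEBPB and TRIB3, and SESN2 and CHAC1 were neighbours whose libraries overlapped there. In the sgYAE1 group DDIT4 came after PPP1R15A, and ATF3 and DDIT3, as well as CEBPB and TRIB3, overlapped. In the controls DDIT4 and TRIB3 came after PPP1R15A, and CEBPB and DDIT3 overlapped.

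Set directly against ABCE1 guides, YAE1 guides gave lower levels of 8 of the 10 genes and a higher level of GDF15. Of all genes tested 18.7% were called lower and 15.3% higher in this comparison, 34.0% in all. The libraries of the 2 groups did not overlap for 8 genes lower in sgYAE1 and for 1 higher, which held for 36.8% and 33.4% of all genes. ATF3 averaged 20.3 ± 2.93 FPKM in sgYAE1 and 61.9 ± 2.80 FPKM in sgABCE1 (SD, n = 2 each), a log2 difference of -1.57 ± 0.12 (SE, limma adjusted p = 0.0017). CHAC1 averaged 3.91 ± 0.214 FPKM in sgYAE1 and 11.3 ± 1.68 FPKM in sgABCE1 (SD, n = 2 each), a log2 difference of -1.32 ± 0.17 (SE, limma adjusted p = 0.0038). PPP1R15A averaged 42.8 ± 4.42 FPKM in sgYAE1 and 92.6 ± 7.11 FPKM in sgABCE1 (SD, n = 2 each), a log2 difference of -1.10 ± 0.10 (SE, limma adjusted p = 0.0021). These 3 genes had the largest differences of the 10, and at most 0.580% of all genes had a lower value than any of them.

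DDIT3 differed by -0.68 ± 0.12 on the log2 scale (SE, limma adjusted p = 0.0086) and SESN2 by -0.56 ± 0.08 (SE, limma adjusted p = 0.0057). CEBPB (-0.45 ± 0.10, SE, limma adjusted p = 0.016), TRIB3 (-0.40 ± 0.10, SE, limma adjusted p = 0.027) and ATF4 (-0.27 ± 0.05, SE, limma adjusted p = 0.01) were also lower with YAE1 guides. GDF15 went the other way, at 9.95 ± 1.11 FPKM in sgYAE1 and 6.82 ± 0.256 FPKM in sgABCE1 (SD, n = 2 each, log2 difference 0.48 ± 0.12, SE, limma adjusted p = 0.021). For DDIT4 no difference was detected (log2 difference 0.026 ± 0.083, SE, 95% interval -0.17 to 0.22, limma adjusted p = 0.83).

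**Figure D4:**
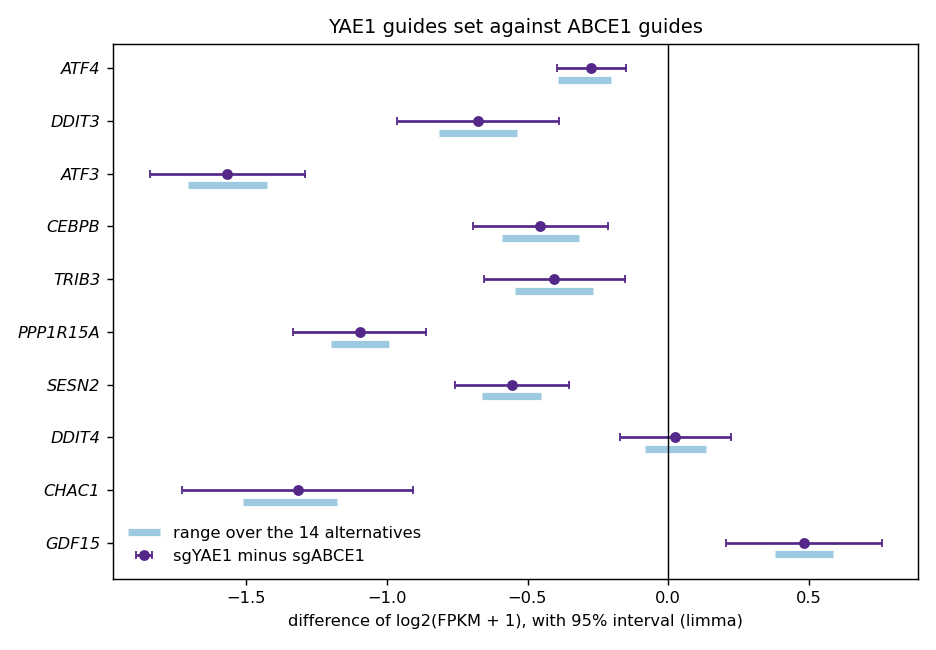
Difference of log2(FPKM + 1), sgYAE1 minus sgABCE1 (horizontal axis, 2 libraries per group), with the 95% interval from limma (points and whiskers) and the range of the value over the 14 alternative settings (pale bars). ATF3, CHAC1 and PPP1R15A are at -1.57, -1.32 and -1.10, DDIT4 is at 0.026, and GDF15 is at 0.48.

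Some calls of the direct comparison were lost under alternatives, mostly with values near those above. Without sgABCE1 replicate 1, the differences of the genes no longer called were -0.27 for ATF4, -0.66 for DDIT3, -0.32 for CEBPB, -0.33 for TRIB3 and 0.52 for GDF15. The same 5 genes were not called with no filter, which leaves the differences unaltered. Without sgABCE1 replicate 2, 6 genes passed, and ATF4 (-0.27), TRIB3 (-0.48) and GDF15 (0.45) did not. In both cases the single remaining library is taken to vary as the rest do. The calls for ATF3, CHAC1, PPP1R15A and SESN2 held in all 14 alternatives tried. GDF15 was not called without sgYAE1 replicate 1 (0.38, limma adjusted p = 0.094). Without sgYAE1 replicate 2, CEBPB was not called (-0.42, limma adjusted p = 0.062), nor was TRIB3, at a log2 difference of -0.27 (limma adjusted p = 0.08).

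Within each group the 10 genes differed in the same direction between the libraries, some of them by less than counting error. All 10 were higher in replicate 1 than in replicate 2 of sgABCE1 (median log2 ratio 0.16) and of sgYAE1 (median 0.17), and all 10 were lower in replicate 1 than in replicate 2 of sgCon (median -0.21). Over all genes tested, 48.9% were higher in replicate 1 of sgABCE1, 52.1% in replicate 1 of sgYAE1 and 49.4% in replicate 1 of sgCon. The ratios within a group ran from 0.0031 (ATF4) to 0.30 (CHAC1) in sgABCE1, from 0.017 (DDIT4) to 0.30 (TRIB3) in sgYAE1, and from -0.76 (CHAC1) to -0.0090 (ATF4) in sgCon. The small ratios lay within counting error. DDIT3 in sgABCE1 had a ratio of 0.037, with counting errors of 3.97% and 3.79%. For DDIT4 in sgYAE1 the counting errors were 3.53% and 3.52%, and for ATF4 in sgABCE1 they were 1.17% and 1.11%. The numbers 1 and 2 are names and were not found to pair libraries across groups. Whether a shared difference between cultures or preparations is involved was not tested.

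**Figure D5:**
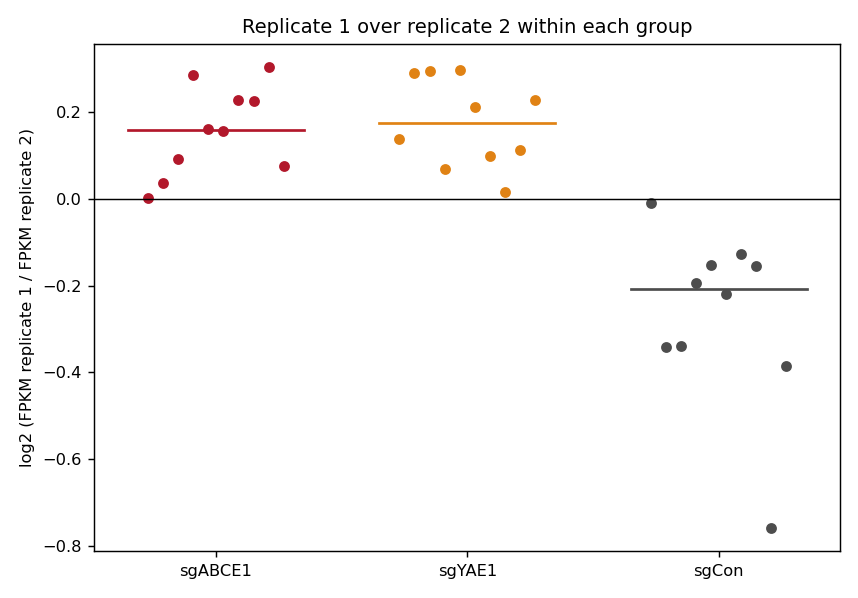
Log2 ratio of FPKM in replicate 1 to FPKM in replicate 2 (vertical axis) for each of the 10 genes (points, in the order ATF4, DDIT3, ATF3, CEBPB, TRIB3, PPP1R15A, SESN2, DDIT4, CHAC1, GDF15 from left to right) within sgABCE1, sgYAE1 and sgCon, with the median of the 10 as a line. All points are above 0 in sgABCE1 and sgYAE1 and below 0 in sgCon.

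Profiles over the 6 libraries were compared by the Euclidean distance of log2(FPKM + 1) values centred on each gene's mean, over 7037 other genes averaging 5 FPKM or more. The nearest gene to ATF4 was ENSG00000173812, at a distance of 0.0528, with the next gene almost level at 0.053. ENSG00000173812 had 217 and 209 FPKM in sgABCE1, 190 and 172 FPKM in sgYAE1, and 132 and 135 FPKM in sgCon. ENSG00000214049 was the nearest to DDIT3, at a distance of 0.132, with the next gene at 0.141. The levels of ENSG00000214049 were 28.3 and 26.2 FPKM in sgABCE1, 17.5 and 14.0 FPKM in sgYAE1, and 5.40 and 7.48 FPKM in sgCon. Such likeness of profile follows from the search. Both identifiers are given without a symbol because the table holds none.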

How the data were processed

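Per the labels' protocols, 1 µg of RNA went into each strand-specific library, sequenced as 150 bp paired ends. The authors deposited 1 table of FPKM values with a column per library. The submitters' processing notes name GRCh37. Which aligner, counter and annotation were used is not given in the sources used here. Reference tables used here are for the mouse, and 0 of the 62492 identifiers matched them, so the gene symbols are those given with the list of 10 identifiers, and the 13 symbol lists and the promoter search were not analysed.

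Low FPKM values are whole multiples of a step, which gave the library totals and the fragments per gene, in steps of 0.5 with a tolerance of 2e-05, with any factor shared by the 6 values of a gene unknown. Genes averaging 1 FPKM or more were kept (12578, all 10 members among them). The test was limma 3.58.1 (R 4.3.3) on log2(FPKM + 1). A single model with group means covered all 6 libraries, variances were moderated with eBayes and a trend, and p-values were adjusted by Benjamini-Hochberg over the kept genes, with a threshold of 0.05. The residual degrees of freedom were 3, with 3.6 added by moderation. This scale understates the change of low genes. The test was tried on simulated data. An exact permutation test of 2 against 2 libraries cannot reach the threshold and was not used. The alternatives were a pseudocount of 0.1, no filter, a filter of 5 FPKM, centring, quantile normalization, the 4 libraries compared, voom on fragments, a replicate block and leaving out each library. The members and lists were chosen with earlier results of these data known. The genes named were all 10 members and, by rule, the 2 nearest genes each to ATF4 and DDIT3, of which 1 each is printed because they carry no symbol.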

Additional observations from a re-analysis of the deposited data

Results flagged for a closer look

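The effect against control guides differed between YAE1 and ABCE1 guides for 9 of the 10 genes (limma, adjusted p under 0.05), as did 34.0% of all genes tested. The control group cancels in this difference, so it is the direct comparison given above and not a further result. As differences of the log2 changes, sgYAE1 minus sgABCE1, the values were -1.57 for ATF3, -1.32 for CHAC1, -1.10 for PPP1R15A, -0.68 for DDIT3, -0.56 for SESN2, -0.45 for CEBPB, -0.40 for TRIB3 and -0.27 for ATF4. GDF15 differed by 0.48 in the other direction. In each the sgYAE1 and sgABCE1 libraries did not overlap, which held for 36.8% of all genes tested in the lower direction and 33.4% in the higher. The calls of ATF4 (adjusted p up to 0.059), DDIT3 (up to 0.059), CEBPB (up to 0.088), TRIB3 (up to 0.13) and GDF15 (up to 0.11) were lost under at least 1 alternative with limma. With 2 libraries a group, no search for outlying libraries was made.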

How the results depend on the processing

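With ABCE1 guides all 140 member values under 14 alternatives kept their direction and their call. With YAE1 guides 128 of 140 did, 9 lost the call (CHAC1 and SESN2) and 3 gained it (TRIB3). Between the targeted groups 123 of 140 kept it, 16 lost it and 1 turned, DDIT4 at -0.083 without sgABCE1 replicate 2 (0.13 without sgABCE1 replicate 1). Without 1 library the members called numbered 10 in each case with ABCE1 guides, 7 to 9 with YAE1 guides and 4 to 9 between them. The genes called over the table numbered 5691 to 7559, 4546 to 6086 and 1811 to 3721, against 7278, 6517 and 4279 with all libraries. With no filter, 4 members and 2091 genes were called between the targeted groups (38269 genes tested), and a filter of 5 FPKM gave 4761 genes with ABCE1 guides (7047 tested). Centring turned the split between the targeted groups to 2395 higher and 1882 lower, against 1928 and 2351. The replicate numbers were not found to pair libraries (correlations of deviations -0.0093, -0.053 and -0.013 over genes). With a single replicate difference per group, these values cannot tell whether libraries shared a culture or preparation. The replicate block gave 7058, 6264 and 3778 genes and changed no member's call. Counting error was largest for CHAC1 in the first control library, at 12.9%.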
